A study of Mus musculus with 12 samples.

Results

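The cytoplasmic miRNAs of C166 cells were compared between 24 h and 0 h of hypoxia. C166 is a mouse endothelial line derived from yolk sac. Cells of the 24 h group were cultured at 1% oxygen for 24 h, and cells of the 0 h group were kept in normoxia, with no other treatment. Both groups are the cytoplasmic fraction of lysed cells, from which small RNA was sequenced in 2 replicates. The comparison takes 4 of the 12 libraries of the series and all 350 miRNAs of its table. The other libraries are the cytoplasmic fraction at 2 h of hypoxia, with 2 libraries, and 6 libraries of the nuclear fraction. No miRNA was chosen by its values. The comparison asks which miRNAs of the cytoplasm differ after a day of low oxygen, in a single cell line. Normalized counts are relative to the library, so a change in the amount per cell and a change in the number of cells or in the other miRNAs cannot be told apart.

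A miRNA is cut from a hairpin transcript, and either strand of the resulting duplex, the 5p or the 3p arm, can be loaded into an Argonaute protein. The loaded arm guides Argonaute to messages that match its seed, bases 2 to 8, and the other arm is usually degraded. In hypoxia the transcription factor HIF induces a small set of miRNAs, of which miR-210-3p is the best known in endothelium. Mature miRNAs mostly act in the cytoplasm, where they repress translation and shorten the life of their target messages.

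The sequences below are those of the miRNAs on which the results turn, with their other arm where it is compared. Capitals mark the seed. They were taken from RefSeq, which matched all but 49 of the 350 miRNAs, with places on GRCm38.p6. The first set holds the leading rise and the let-7 arms, in which 9 of 10 measured 5p arms share 1 seed and 5 of 10 measured 3p arms share another.
miR-210-3p: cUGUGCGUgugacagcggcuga
let-7a-5p: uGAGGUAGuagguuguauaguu
let-7b-5p: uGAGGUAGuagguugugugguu
let-7e-5p: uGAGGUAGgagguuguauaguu
let-7a-1-3p: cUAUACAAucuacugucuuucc
let-7c-2-3p: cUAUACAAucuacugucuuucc
let-7f-1-3p: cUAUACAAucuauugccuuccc
let-7f-2-3p: cUAUACAGucuacugucuuuc
let-7c-1-3p: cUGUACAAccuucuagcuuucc

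let-7a-1-3p and let-7c-2-3p have the same mature sequence, so their values come from reads that cannot be told apart and stand for 1 measurement. The 5p arms of let-7 differ at few positions, and reads may be shared between them. The second set holds hairpins whose arms moved apart and the leading falls.
miR-221-5p: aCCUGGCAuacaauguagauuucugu
miR-221-3p: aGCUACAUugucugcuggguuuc
miR-222-3p: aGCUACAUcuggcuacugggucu
miR-27a-5p: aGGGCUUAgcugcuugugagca
miR-27a-3p: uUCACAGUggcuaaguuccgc
miR-24-1-5p: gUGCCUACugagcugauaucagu
miR-24-2-5p: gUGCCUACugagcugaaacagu
miR-365-2-5p: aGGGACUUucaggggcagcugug
miR-301b-5p: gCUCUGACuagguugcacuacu
miR-219a-1-3p: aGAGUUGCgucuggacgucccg
miR-16-1-3p: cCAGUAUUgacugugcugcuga
miR-16-5p: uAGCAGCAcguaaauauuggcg
miR-503-5p: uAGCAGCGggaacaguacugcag
miR-877-3p: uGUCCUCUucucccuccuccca
miR-350-3p: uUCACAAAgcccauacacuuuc

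miR-221-3p and miR-222-3p share a whole seed, as do miR-24-1-5p and miR-24-2-5p, while miR-503-5p and miR-16-5p do not. The miR-210 hairpin lies at chr7:141221384-141221493 on the minus strand. The miR-27a hairpin lies at chr8:84208672-84208758 on the plus strand, next to that of miR-24-2 at chr8:84208815-84208921. The hairpins of let-7a-1 at chr13:48538179-48538272 and let-7f-1 at chr13:48537829-48537917 both lie in exons of the lincRNA 6720427I07Rik of GENCODE vM21. The miR-221 hairpin at chrX:19146294-19146388 and the miR-222 hairpin at chrX:19146893-19146971 are neighbours on the minus strand.

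The libraries held 4809100 and 4708753 reads in these miRNAs at 24 h, against 7787926 and 6398901 at 0 h, and each miRNA had at least 10 reads in every library of the series. miR-21a-5p took 51.0% and 48.8% of the reads at 24 h, against 60.3% and 57.7% at 0 h. The endothelial marker miR-126a-3p was measured at 487 and 476 normalized counts at 24 h, against 860 and 557 at 0 h (log2 difference -0.52, adjusted p = 0.052 from limma). The mesenchymal and smooth muscle marker miR-143-3p was far more abundant, at 360365 and 328769 normalized counts against 533007 and 563240. Of 7 epithelial markers 3 were in the table, with a summed level of 92.1 to 93.9 normalized counts at 24 h and 192 to 297 at 0 h. Of 7 blood cell markers 1 was in the table, miR-486-5p, with 343 and 357 normalized counts against 225 and 329, and of 5 striated muscle markers only miR-206-3p was. Of 4 neuronal markers 2 were in the table, miR-9-5p and miR-128-3p. Their summed level was 1965 and 2263 normalized counts at 24 h, against 2752 and 2338 at 0 h. The part of other cell types in the results was not tested.

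A log2 difference is that of log2(normalized count + 1), 24 h minus 0 h, fitted with limma over the 6 cytoplasmic libraries. A normalized count is a read count divided by the DESeq2 size factor of its library, and the scale understates the change of miRNAs with few reads. The call needed both a 2-fold difference or more and, after Benjamini-Hochberg adjustment over all miRNAs, a p under 0.01. At this rule 48 of 350 miRNAs were called (13.7%), of which 14 were higher (4.0%) and 34 were lower at 24 h (9.71%). The largest rise was that of miR-210-3p and the largest fall that of miR-27a-5p. Each of the 48 had 24 h libraries outside the range of the 0 h libraries, but so did 263 of all 350 miRNAs (75.1%), so this separation is the rule and not particular to the called miRNAs. With the p alone and no limit on the fold, 86 miRNAs passed, 29 higher and 57 lower, and the median log2 difference of all miRNAs was -0.10.

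The balance between rises and falls depended on how the libraries were set to each other. Scaled to the total count, which moved the median of all miRNAs by 0.42, 40 miRNAs were called higher and 13 lower, and scaled to that total without miR-21a-5p 17 were higher and 20 lower. Scaled to miR-186-5p, 11 were higher and 5 lower. With TMM factors 16 were higher and 34 lower. Each of the 48 kept its direction under these and under size factors set within each fraction, and 6 of the 14 rises and 5 of the 34 falls were called under all 5 of these scalings. The number of rises also turned on single libraries, since 5 remained in number when 24 h replicate 1 was left out, 7 when 0 h replicate 1 was, and 24 when 0 h replicate 2 was.

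**Figure D1:**
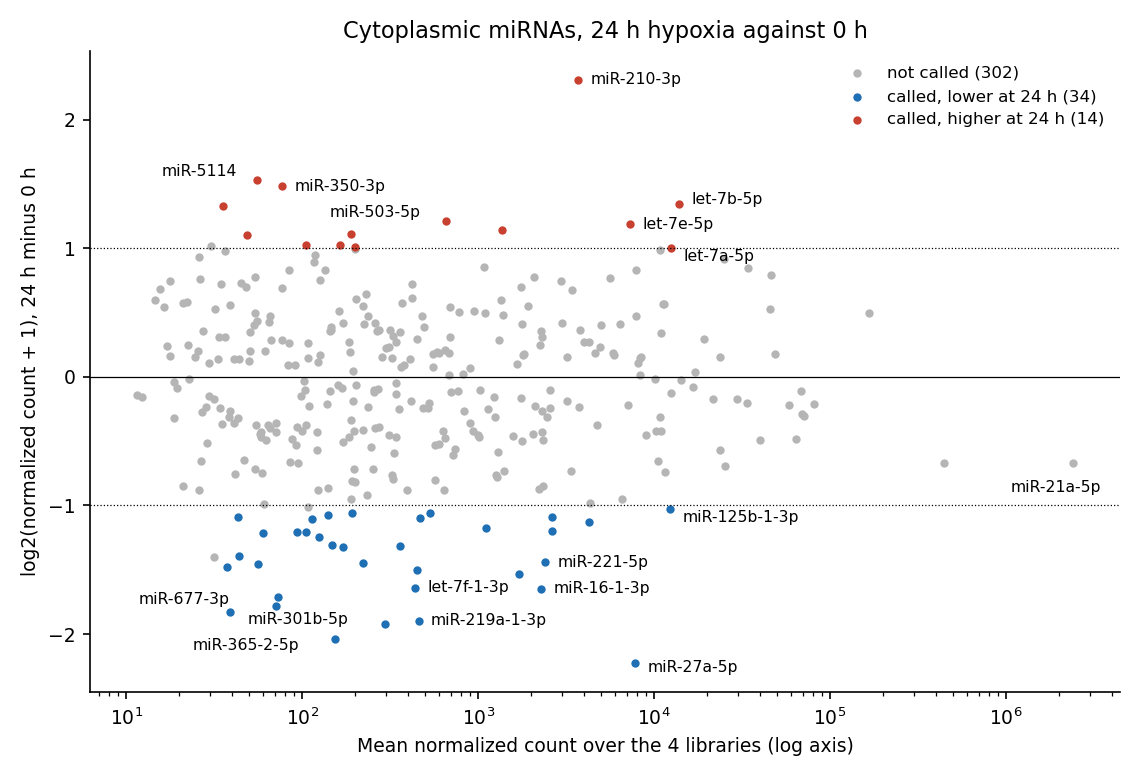
Each point is 1 of 350 miRNAs, with its mean normalized count over the 4 libraries on a log axis and its log2 difference, 24 h minus 0 h, on the vertical axis. Red and blue mark the 14 miRNAs called higher and the 34 called lower, and dotted lines mark a 2-fold difference. miR-210-3p stands above all others, and the called falls lie at means of 37.3 to 12356 normalized counts, with miR-125b-1-3p the most abundant.

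miR-210-3p, which is induced by HIF and represses the iron-sulfur cluster scaffold Iscu, was measured at 6154 and 6195 normalized counts at 24 h, against 1284 and 1206 at 0 h. The libraries of each time lay close together and the groups were far apart. miR-210-3p rose 4.96-fold, by 2.31 on the log2 scale (standard error 0.17, adjusted p = 7.4e-10 from limma). At 2 h it was 1143 and 1099 normalized counts, a log2 difference of -0.15 from 0 h (adjusted p = 0.87 from limma). Its share of the reads was 0.158% and 0.174% at 24 h, against 0.0262% and 0.0236% at 0 h. The rise was called under every alternative tried.

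miR-210-3p was the only called member of 22 measured miRNAs from a list of hypoxia-associated miRNAs, against 13.7% called among all 350 miRNAs. The median log2 difference of the list was 0.06, against -0.10 over all miRNAs. miR-23a-3p had the next highest value, with 3805 and 3588 normalized counts at 24 h against 2018 and 2408 at 0 h (0.74, adjusted p = 0.0020 from limma), which is under 2-fold. miR-24-3p, made from hairpins of the same clusters, had the lowest, with 8059 and 8884 against 17427 and 11499 (-0.74, adjusted p = 0.0049 from limma). miR-155-5p, miR-34a-5p and miR-103-3p, also described as responsive to low oxygen, were not called, at -0.36, -0.25 and 0.35. miR-199a-5p, which represses HIF-1α, was measured at 8306 and 9149 normalized counts against 8251 and 7551 (0.14, adjusted p = 0.55 from limma).

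The let-7 5p arms restrain growth through targets such as Lin28 and Ras messages. Of 10 measured, 3 were called higher at 24 h and none lower, against 4.0% higher among all 350 miRNAs. The number of these 10 called higher was 8 scaled to the total count, 6 scaled to miR-186-5p and 5 on a total that leaves out miR-21a-5p. All 10 had higher levels in both 24 h libraries than in either 0 h library, with log2 differences of 0.42 to 1.35 and a median of 0.88. This order held for 75.1% of all miRNAs in one direction or the other. The 3 called members were let-7b-5p, let-7e-5p and let-7a-5p. Under each scaling tried the median of the 10 was positive, between 0.88 and 1.31. Together these 10 arms held 411037 and 376406 normalized counts at 24 h, against 213320 and 276230 at 0 h.

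let-7b-5p was measured at 20260 and 19237 normalized counts at 24 h, against 6512 and 9264 at 0 h. Its log2 difference was 1.35 (standard error 0.19, adjusted p = 1.4e-05 from limma). let-7e-5p was measured at 10752 and 9588 normalized counts, against 4079 and 4881 at 0 h, a log2 difference of 1.19 (adjusted p = 2.1e-05 from limma). Both were called under every alternative. let-7a-5p, at 17285 and 15907 against 7460 and 9156, lay at the edge of the call, with 1.00, and let-7d-5p lay just below it, with 0.99. let-7i-5p, the most abundant of the family, was measured at 202020 and 187556 normalized counts at 24 h and 120127 and 157993 at 0 h (0.50, adjusted p = 0.096 from limma).

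miR-503-5p, which represses cell cycle genes such as Ccnd1 and is usually grouped with the miR-15/16 family, was measured at 927 and 913 normalized counts at 24 h, against 393 and 400 at 0 h. The values of each time agreed closely, and the log2 difference was 1.21 (standard error 0.19, adjusted p = 3.1e-05 from limma). Of the other 12 measured arms of the miR-15/16 family, 11 were not called and miR-16-1-3p, the arm opposite a guide, was lower. Over all 350 miRNAs 13.7% were called. miR-503-5p is also made from the X-linked cluster that runs from miR-322 to miR-450. In that cluster 2 of 10 measured arms rose, against 4.0% of all miRNAs, with a median of 0.25. The other was miR-450b-3p, at 283 and 248 normalized counts at 24 h against 112 and 152.3 at 0 h (1.01). miR-322-5p of the same cluster was at 675 and 589 against 616 and 499, and was not called.

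The other rises were of lower abundance. miR-350-3p, from an intron of Cep170, was measured at 109 and 118 normalized counts at 24 h, against 35.2 and 45.5 at 0 h (1.48, adjusted p = 0.00018 from limma). miR-5114 was measured at 88.2 and 77.0 against 27.1 and 28.7 (1.53), and miR-5113 at 50.2 and 49.0 against 11.3 and 31.9 (1.33, adjusted p = 0.0089 from limma). For miR-5113 the 0 h libraries differed from each other more than the 24 h libraries did. miR-669c-5p comes from the repeat-rich cluster in an intron of Sfmbt2. It rose to 2058 and 1696 normalized counts at 24 h, against 723 and 994 at 0 h (1.14). It was the only called miRNA of 17 measured in that cluster, against 13.7% called among all 350 miRNAs. miR-362-3p, of an X-linked cluster, was at 72.9 and 60.4 against 34.0 and 27.1 (1.10). With each of the 4 libraries left out in turn, the difference of miR-362-3p ran from 0.94 to 1.26. That of miR-5113 ran from 0.62 to 2.04. Each of these 2 was called under 3 of the 5 scalings.

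Of 38 measured miRNAs of the imprinted Dlk1-Dio3 cluster on chromosome 12, 3 rose and 35 were not called. Over all 350 miRNAs 13.7% were called, 4.0% of them higher and 9.71% lower. The median log2 difference of the cluster was 0.30. The called members were miR-382-3p, miR-540-3p and miR-494-3p. miR-382-3p was measured at 292 and 220 normalized counts at 24 h, against 83.1 and 164 at 0 h (1.11, adjusted p = 0.0020 from limma). miR-494-3p was at 236 and 200 against 78.0 and 144 (1.03), and miR-540-3p at 152.2 and 130 against 60.4 and 77.4 (1.03). Log2 differences ran from -0.88 to 1.11 over the cluster. Scaled to the total count 8 of the 38 were called higher, and scaled to miR-186-5p none was. When each of the 4 libraries was left out in turn, miR-382-3p was called in 2 of 4 fits, with values of 0.63 to 1.6, miR-494-3p in 2, with 0.59 to 1.46, and miR-540-3p in 1, with 0.85 to 1.20.

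**Figure D2:**
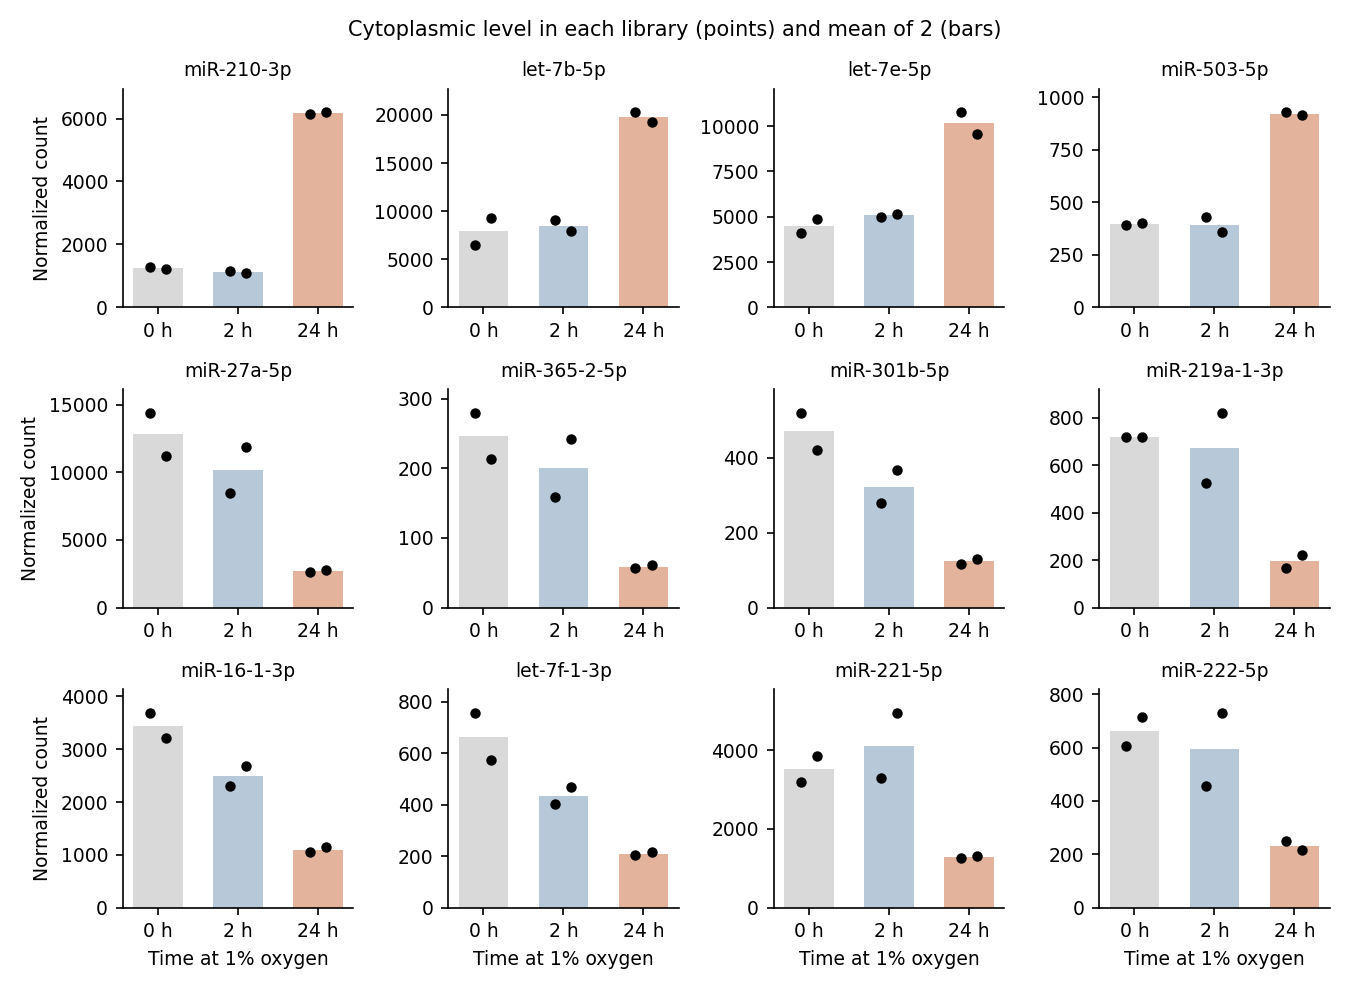
Normalized counts of 12 miRNAs in the cytoplasm at 0, 2 and 24 h of 1% oxygen, as points for each of 2 libraries and bars for their mean, on axes that start at 0. The top row shows 4 rises and the lower rows 8 falls. For miR-210-3p the 2 h bar lies at the 0 h level, while for miR-301b-5p and let-7f-1-3p it lies between 0 h and 24 h.

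The largest fall was that of miR-27a-5p, the minor arm of the miR-27a hairpin, which was measured at 2631 and 2798 normalized counts at 24 h, against 14419 and 11207 at 0 h. The lower of the 0 h values is far above both 24 h values. The log2 difference was -2.23 (standard error 0.20, adjusted p = 9.7e-09 from limma). miR-27a-3p, the arm known as the guide, was at 9173 and 10198 normalized counts at 24 h against 12848 and 11201 at 0 h (-0.31, adjusted p = 0.19 from limma). In the miR-23/27/24 clusters 3 of 9 measured arms fell and none rose, against 9.71% lower among all 350 miRNAs. The median of the 9 was -0.74, and all 3 falls were 5p arms. miR-24-2-5p was at 2429 and 2862 normalized counts against 7175 and 4611 (-1.13), and miR-24-1-5p, from the paralogous cluster on chromosome 13, at 59.1 and 62.6 against 190 and 106 (-1.21). The median of this group was negative under each scaling tried, between -0.74 and -0.32, but the calls depended on it, with 1 higher and 1 lower on the total count and 1 lower on miR-186-5p or on the total without miR-21a-5p.

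miR-365-2-5p was measured at 56.7 and 61.1 normalized counts at 24 h, against 280 and 213.7 at 0 h (-2.04, standard error 0.24, adjusted p = 9.6e-07 from limma). miR-301b-5p, from a cluster with miR-130b, was at 116 and 131 normalized counts against 520 and 420 (-1.92, adjusted p = 4.2e-07 from limma). miR-219a-1-3p was at 166 and 223 against 721 and 721 (-1.90, adjusted p = 6.5e-07 from limma). These 3 are arms opposite to the better known guides miR-365-3p, miR-301b-3p and miR-219a-5p. miR-16-1-3p, opposite to miR-16-5p, was measured at 1048 and 1151 normalized counts at 24 h, against 3690 and 3207 at 0 h (-1.65, standard error 0.18). miR-16-5p, which represses Bcl2, was at 617 and 525 against 524 and 554 (0.08). In the cytoplasm the arm named 3p was thus the more abundant of the 2. In the nucleus miR-16-5p was the more abundant, at 1021 and 803 normalized counts at 24 h, against 242 and 251 of miR-16-1-3p.

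miR-221-5p was measured at 1261 and 1321 normalized counts at 24 h, against 3188 and 3850 at 0 h (-1.44, standard error 0.20, adjusted p = 6.8e-06 from limma). miR-222-5p was at 249 and 215 normalized counts against 605 and 715 (-1.50, adjusted p = 1.4e-05 from limma). The guide arms, which repress Kit and Cdkn1b in vascular cells, were not called. miR-221-3p was at 6893 and 7294 normalized counts at 24 h against 3674 and 4701 at 0 h (0.77, adjusted p = 0.0025 from limma), under the 2-fold limit. miR-222-3p was at 7935 and 8842 against 6697 and 9021 (0.11), with overlapping libraries.

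Other falls with low counts were those of miR-677-3p and miR-5099. miR-677-3p was at 13.8 and 19.6 normalized counts at 24 h against 56.6 and 65.4 at 0 h (-1.83). miR-5099 was at 27.5 and 35.5 against 99.4 and 122 (-1.79). The other arm of the first hairpin, miR-677-5p, also fell, with 97.1 and 85.3 normalized counts against 150 and 348 (-1.32). miR-877-3p comes from a mirtron, a hairpin that is spliced from Abcf1 in place of being cut, and was measured at 891 and 830 normalized counts against 3061 and 2027 (-1.53, adjusted p = 4.5e-06 from limma). Its 5p arm was at 107 and 93.6 against 109 and 105 (-0.10). Among 17 mirtrons and miRNAs that overlap snoRNAs, miR-877-3p, miR-1843b-3p and miR-7079-3p fell and none rose, against 9.71% lower among all 350 miRNAs. On the total count 1 of the 17 was called lower and 1 higher, and on miR-186-5p none was called.

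The arms of a hairpin are read in the same library, so the ratio of the minor to the major arm does not depend on how libraries are scaled. Some arms, such as let-7f-5p, let-7c-5p and miR-16-5p, are also made from hairpins on other chromosomes. For these the ratio takes in other transcripts, whose part was not tested. Minor and major are set by the mean normalized count over the 12 libraries of the series. Of 100 hairpins with both arms in the table, 37 had a ratio that differed between 24 h and 0 h at an adjusted p under 0.05 from limma (37.0%). The ratio was lower at 24 h for 27 (27%) and higher for 10 (10.0%), with a median change of -0.36 on the log2 scale and 68 of 100 changes below 0. Over the 100 hairpins the minor arm had a median log2 difference of -0.36 and the major arm of -0.05. Leaving out 0 h replicate 1 gave a count of 11, all of them lower, and leaving out 24 h replicate 1 or 2 gave 18 or 20.

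In the let-7 family the arms moved apart. Of 10 hairpins of let-7 and miR-98, 9 had a ratio of 3p to 5p arm called lower at 24 h, against 27% of all 100 hairpins. All 10 changes were below 0, with a median of -1.92. With 1 of the 4 libraries left out, the median was between -2.13 and -1.77. The 10 share some 5p arms, and 2 of them the 3p sequence named above. The 3p arm of let-7a-1 made up 8.53% and 9.82% of both arms at 24 h, against 35.2% and 25.5% at 0 h, a change of -2.10 in the log2 ratio (standard error 0.24, adjusted p = 8.0e-05 from limma). That of let-7c-1 made up 0.619% and 0.618%, against 2.47% and 3.29% at 0 h (-2.23), and that of let-7b 2.80% and 3.08%, against 11.7% and 8.84% (-1.90). Of the 10 measured 3p arms, 5 fell and none rose, against 9.71% lower among all 350 miRNAs. The median of the 10 was -0.92 and was negative under each scaling tried, between -0.92 and -0.49. Scaled to the total count or to miR-186-5p 1 of the 10 was called lower, and on a total that leaves out miR-21a-5p 3 were. let-7f-1-3p fell most, to 203 and 218 normalized counts at 24 h, against 757 and 572 at 0 h (-1.64, standard error 0.20, adjusted p = 1.5e-06 from limma). miR-98-3p, at 32.4 and 37.0 against 33.4 and 29.5 (0.14), did not pass the test.

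Outside let-7, the ratio was called lower for 18 of 90 hairpins and higher for 10, with a median change of -0.22. Over all 100 hairpins 27% were called lower and 10.0% higher. Of the 90 changes 58 were below 0. miR-221-5p made up 15.5% and 15.3% of both arms of its hairpin at 24 h, against 46.5% and 45.0% at 0 h (-2.21, standard error 0.28, adjusted p = 0.00011 from limma). miR-27a-5p made up 22.3% and 21.5%, against 52.9% and 50.01% (-1.92), so it was the more abundant arm at 0 h in the cytoplasm and the less abundant at 24 h. For miR-365-2 the 5p share was 25.5% and 31.2% at 24 h, against 81.5% and 68.0% at 0 h (-2.93, standard error 0.35), with the 3p arm shared with another hairpin. The ratio was also lower for miR-30b, miR-30c-2 and miR-30d, for miR-148a and miR-148b, and for miR-125b-1, whose minor arm was at 40.7% and 40.3% against 57.0% and 55.0%.

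In the 10 hairpins with a ratio called higher, the major arm had a log2 difference between -1.65 and -0.31. Of these major arms 3 were called lower, miR-16-1-3p, miR-877-3p and miR-1843b-3p. miR-350-3p made up 46.6% and 41.3% of both arms at 24 h, against 10.8% and 18.8% at 0 h (2.2, standard error 0.41, adjusted p = 0.0015 from limma). miR-16-5p made up 37.1% and 31.3%, against 12.4% and 14.7% (1.73), and miR-877-5p 10.7% and 10.1%, against 3.45% and 4.94% (1.43). miR-145a-5p, known as the guide of a smooth muscle hairpin, made up 51.5% and 55.7% at 24 h, against 33.7% and 35.3% at 0 h (1.13, standard error 0.20, adjusted p = 0.0012 from limma).

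**Figure D3:**
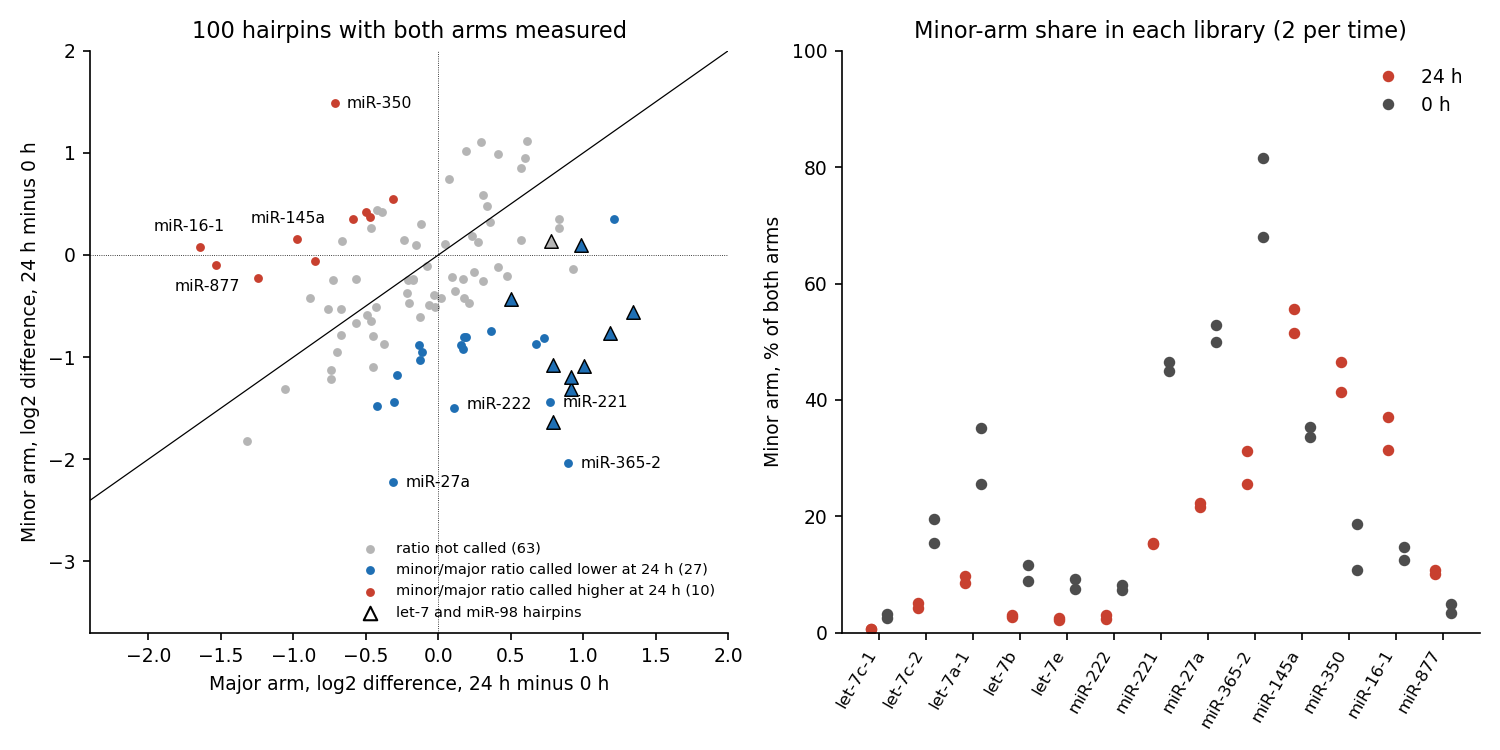
Left, the log2 difference of the minor arm against that of the major arm for 100 hairpins, with the diagonal marking an equal change. Blue marks a ratio called lower at 24 h, red one called higher, and triangles the let-7 and miR-98 hairpins. Right, the minor arm as a percentage of both arms in each of 2 libraries at 24 h (red) and 0 h (grey) for 13 hairpins. All let-7 triangles lie below the diagonal, and in each of the 13 hairpins the libraries of the 2 times do not overlap, as for 74 of all 100 hairpins (74.0%).

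In the remaining families the calls are set against the 13.7% of all 350 miRNAs that were called, 9.71% lower and 4.0% higher. In the miR-17-92 and paralogous clusters, which promote proliferation, none of 15 measured arms was called, and their values ran from -0.88 for miR-18a-5p to 0.29. The miR-30 family had 1 call among 10 arms, miR-30d-3p, at 108 and 130 normalized counts at 24 h against 363 and 288 at 0 h (-1.44). The miR-29 family, which represses collagens, had 1 among 4, miR-29a-5p, at 18.6 and 19.6 against 62.3 and 48.6 (-1.48), while miR-29a-3p, miR-29b-3p and miR-29c-3p were at -0.42, -0.42 and -0.66. The groups of miR-181, of miR-130 and miR-301, of miR-148 and miR-152, and of miR-125, miR-99 and miR-10 had 1 fall each, of miR-181a-1-3p, miR-301b-5p, miR-148a-5p and miR-125b-1-3p, and no rise. miR-125b-1-3p was the most abundant called fall, at 7688 and 8578 normalized counts at 24 h against 17165 and 15991 at 0 h (-1.03, adjusted p = 0.00011 from limma). This fall was called under 0 of the 5 scalings, and its log2 difference ran from -1.11 to -0.60 over the alternatives.

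Of 14 endothelial and vascular miRNAs 1 was called, against 13.7% of all 350 miRNAs. miR-132-3p, which promotes vessel growth by repressing Rasa1, fell to 132 and 116 normalized counts at 24 h, against 263 and 254 at 0 h (-1.06, standard error 0.21, adjusted p = 0.00045 from limma). Its other arm miR-132-5p was at 76.1 and 89.0 against 259 and 163 (-1.31), and both arms were thus called lower. Scaled to the total count, none of the 14 was called lower and 2 were called higher. miR-296-5p, of the same list, was measured at 259 and 269 against 101 and 173 (0.99, adjusted p = 0.0021 from limma), just under 2-fold. miR-31-5p, miR-146a-5p and miR-10b-5p were at 0.17, -0.36 and -0.57 and were not called. In the groups of miR-34, of miR-183 and miR-182, of miR-143 and miR-145, and of miR-199 and miR-214 no member was called. miR-199b-5p came closest in the last, at 1353 and 1425 normalized counts at 24 h against 726 and 814 at 0 h (0.85, adjusted p = 0.0011 from limma).

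Among miRNAs typical of other tissues, miR-122-5p, the abundant miRNA of liver, was at 33.2 and 30.2 normalized counts at 24 h against 71.8 and 155 at 0 h (-1.71, adjusted p = 0.00015 from limma). The epithelial miR-203-3p was at 21.1 and 25.7 against 75.5 and 51.8 (-1.39) and miR-200b-3p at 55.9 and 52.8 against 91.9 and 174 (-1.20), and both were called lower, though neither was when scaled to the total count or to miR-186-5p. miR-200c-3p had a fall of the same size, with 17.0 and 13.6 normalized counts against 24.6 and 71.0 (-1.40), but its adjusted p of 0.0101 from limma missed the threshold. The 4 miRNAs lay between 13.6 and 174 normalized counts in these libraries, and the source of these reads was not tested. None of the measured blood cell, striated muscle or neuronal markers was called.

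**Figure D4:**
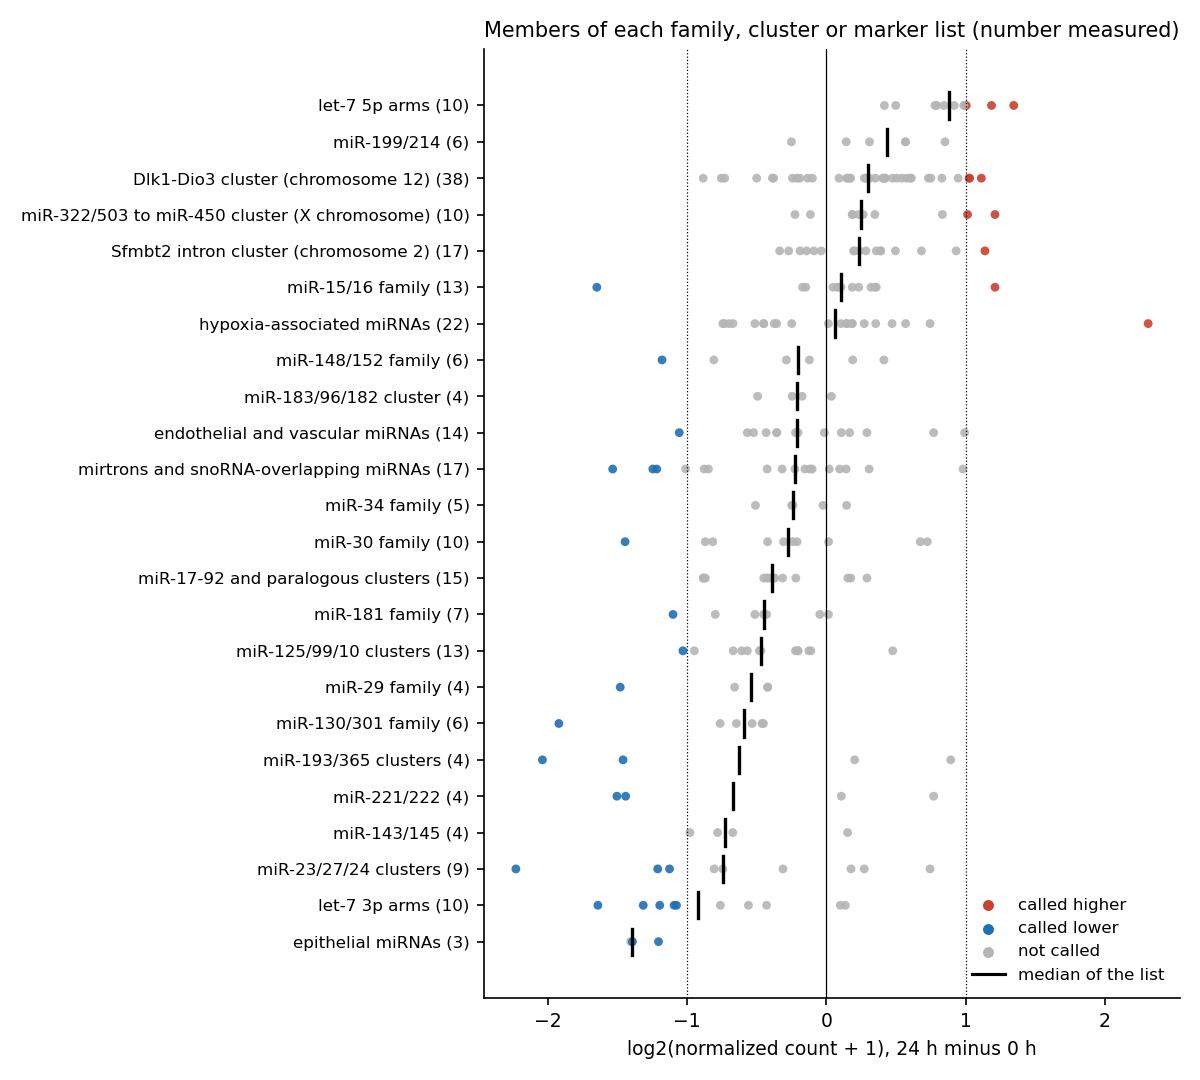
Log2 difference, 24 h minus 0 h, of each measured member of 24 families, clusters and marker lists with at least 3 measured members, with red for called higher, blue for called lower, grey for not called and a black line for the median. The lists are ordered by median, with the let-7 5p arms at the top (0.88) and the let-7 3p arms (-0.92) and epithelial miRNAs (-1.39) at the bottom.

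Of the 34 falls, 18 were the minor arm of a hairpin with both arms measured (52.9%), 5 the major arm and 11 had no measured partner, against 100 minor arms among all 350 miRNAs (28.6%). Of the 14 rises 4 were minor arms. In the 2 h libraries, which are not part of this comparison, 25 of the 34 falls were higher in the cytoplasm than in the nucleus, with a median log2 nucleus/cytoplasm ratio of -1.33. Of the 14 rises 10 were higher in the nucleus, with a median of 0.81. Over all 350 miRNAs 171 were higher in the cytoplasm and 179 in the nucleus, with a median of 0.02. Among the falls with a RefSeq sequence 24.14% began with U (7 of 29), against 53.8% of the rises (7 of 13) and 42.5% of all matched miRNAs. Minor arms as a class shared these traits. Of all matched minor arms 18.9% began with U, and 65 of the 100 minor arms were higher in the cytoplasm at 2 h. The falls were not rare miRNAs as a group, with a median of 207 normalized counts, a range of 37.3 to 12356, and 9 at 1000 or more, against a median of 313 over all miRNAs.

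miR-3535 and miR-1291 are 2 of the miRNAs that lie mostly in the nucleus. In the cytoplasm miR-3535 was at 66.4 and 74.0 normalized counts at 24 h, against 115 and 176 at 0 h (-1.01, adjusted p = 0.01003 from limma), just outside the call by its p. miR-1291 was at 44.5 and 37.7 against 18.2 and 74.2 (0.14, adjusted p = 0.76 from limma), with the 24 h values inside the range of 0 h. miR-186-5p, which the study used as its reference for RT-qPCR, was at 1021 and 1204 normalized counts at 24 h, against 1406 and 1345 at 0 h (-0.31, standard error 0.18, adjusted p = 0.18 from limma).

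The most abundant miRNAs were not called. miR-21a-5p was measured at 1985910 and 1732660 normalized counts at 24 h, against 2957510 and 2942150 at 0 h (-0.67, adjusted p = 0.095 from limma), and miR-143-3p had a difference of -0.67 (adjusted p = 0.051 from limma). miR-30a-5p, miR-30d-5p, miR-99b-5p, miR-148a-3p and miR-99a-5p lay between -0.48 and -0.11. The values nearest the 2-fold limit among miRNAs with an adjusted p under 0.01 were let-7a-5p, miR-450b-3p and miR-494-3p inside it, at 1.00, 1.01 and 1.03, and miR-296-5p, let-7d-5p and miR-1945 outside it, at 0.99, 0.99 and -0.99.

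At 2 h most of the called miRNAs lay near their 0 h level. The 2 h mean was nearer to 0 h than to 24 h for 43 of the 48, and between the means of the 2 times for 40, against 243 and 186 of all 350 miRNAs. The median log2 difference from 0 h to 2 h was -0.35 for the 34 falls and 0.17 for the 14 rises, and these values share the 0 h libraries with the comparison. miR-27a-5p was at 8442 and 11913 normalized counts at 2 h and let-7f-1-3p at 403 and 467.

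Whether a response differed from that of the nucleus was tested as the difference between the 2 responses, over all 12 libraries. Of all 350 miRNAs 162 were called at an adjusted p under 0.05 from limma (46.3%). Of the 48 called in the cytoplasm 35 were, 25 of the falls and 10 of the rises. The 48 were chosen by their cytoplasmic difference, which is part of this test, so their larger share is no separate result. The direction of the called differences between fractions depended on the scaling, with 74 higher and 88 lower in the cytoplasm here. The numbers were 105 and 32 on the total count, 103 and 27 on miR-186-5p, and 38 and 125 on the total without miR-21a-5p. Over all miRNAs the number was 97 when nuclear 0 h replicate 2 was left out, 99 for cytoplasmic 24 h replicate 1 and 106 for nuclear 24 h replicate 2. By its own call at the 2-fold rule, the nucleus changed for 73 miRNAs (20.9%), and for 8 of the 48 it changed in the same direction, for 3 in the opposite direction and for 37 it was not called. miR-210-3p rose in both, with 12744 and 11948 normalized counts in the nucleus at 24 h against 1684 and 1758 at 0 h, and the responses differed by -0.53 (adjusted p = 0.056 from limma). The 3 opposite ones were let-7a-5p, miR-382-3p and miR-494-3p, which were lower at 24 h in the nucleus.

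**Figure D5:**
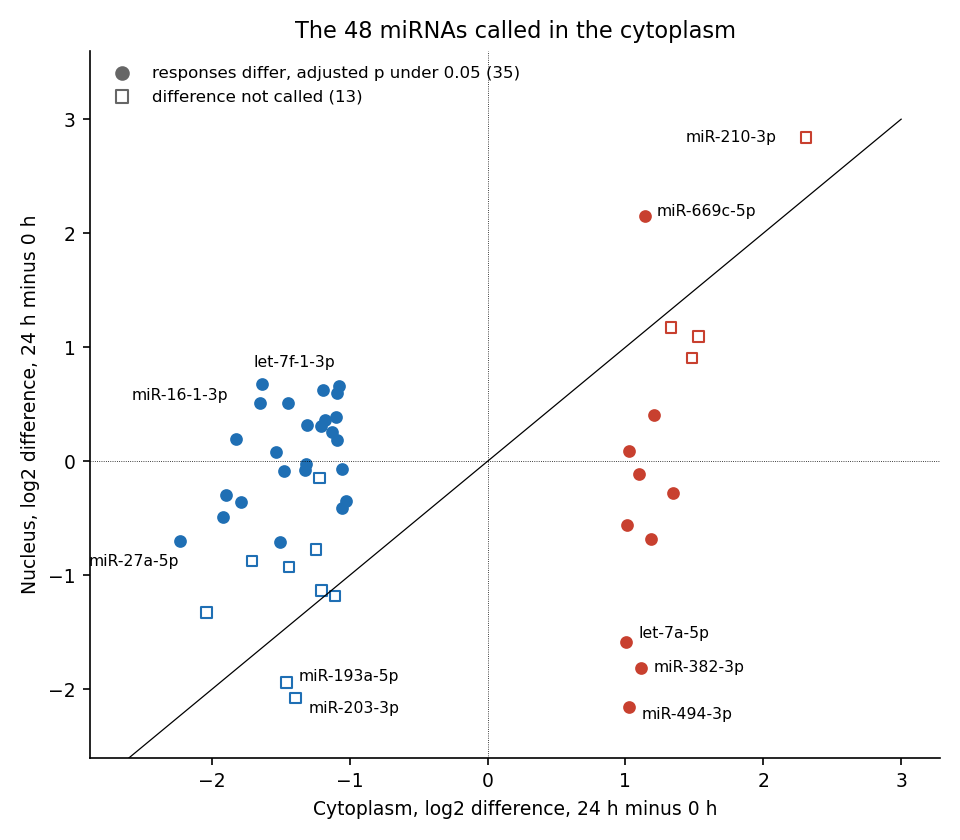
Log2 difference, 24 h minus 0 h, in the nucleus against that in the cytoplasm for the 48 miRNAs called in the cytoplasm, red for rises and blue for falls, with the diagonal marking equal responses. Filled circles are the 35 whose responses differed at an adjusted p under 0.05 and open squares the 13 whose difference was not called. Most falls lie above the diagonal, near 0 in the nucleus, and miR-210-3p lies near the diagonal.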

How the data were processed

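Small RNA from nuclear and cytoplasmic fractions was sequenced in 12 libraries, 2 per group. The authors converted base calls with bcl2fastq, trimmed reads with Trimmomatic, mapped the trimmed reads to miRBase by Bowtie2 2.1.0, kept miRNAs with at least 10 reads and divided the counts by DESeq2 size factors. The authors deposited the resulting signal, a normalized count per miRNA and library. Their log2 fold changes and p-values per comparison, in the same table, were not used. Multiplied by a size factor, 100% of values came within 0.01 of a whole read.

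With limma 3.58.1 (R 4.3.3, variance trend, Benjamini-Hochberg adjustment), differences of log2(normalized count + 1) were fitted over the 6 cytoplasmic libraries for levels and arm ratios and over 12 for the difference between fractions. P-values measure the spread between these libraries only. Named miRNAs are the called ones with the 15 largest changes each way, the 8 most abundant, each list's called members (or up to 3 with the largest change), the other arms, the 3 on either side of the call, and those the study names. Others, such as miR-132-5p, miR-188-5p, miR-149-5p, miR-31-5p, miR-155-5p, miR-322-5p and miR-98-3p, were named after their values were seen. Members and the 28 lists were chosen with earlier results of these data known. For 32 miRNAs the table's name carries a suffix for merged names, which was dropped. Alternatives were pseudocounts of 0.5 and 10, a mean of at least 100, 5 scalings, other thresholds, no trend, 4 libraries only, limma-voom on recovered reads, a block for the replicate number, and each library left out in turn. Python 3.11.15, numpy 2.4.6, pandas 2.3.3 and matplotlib 3.10.9 made the tables and figures.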

Additional observations from a re-analysis of the deposited data

Results flagged for a closer look

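For 35 of the 48 called miRNAs the 24 h response differed between the cytoplasm and the nucleus, by the test of the difference over the 12 libraries (limma, adjusted p under 0.05, against 46.3% of all 350 miRNAs). The 48 were chosen by their cytoplasmic difference, which is part of this test. A larger share among them is therefore no separate result. Values are the cytoplasmic minus the nuclear log2 difference. Among the let-7 3p arms the difference was -2.32 for let-7f-1-3p, -1.82 for let-7c-2-3p, -1.74 for let-7f-2-3p, -1.69 for let-7a-1-3p and -1.29 for let-7c-1-3p. It was 1.63 for let-7b-5p, 1.87 for let-7e-5p and 2.59 for let-7a-5p, the 5p arms that rose in the cytoplasm.

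In the miR-23/27/24 clusters the difference was -1.53 for miR-27a-5p, -1.52 for miR-24-1-5p and -1.38 for miR-24-2-5p. Among other minor arms it was -2.02 for miR-677-3p, -1.95 for miR-30d-3p, -1.63 for miR-132-5p, -1.54 for miR-148a-5p, -1.49 for miR-181a-1-3p, -1.39 for miR-29a-5p, -0.79 for miR-222-5p and -0.68 for miR-125b-1-3p. Among major arms it was -2.15 for miR-16-1-3p, -1.61 for miR-877-3p, -1.25 for miR-677-5p and -0.98 for miR-132-3p. Of the falls with no measured partner, miR-219a-1-3p, miR-301b-5p, miR-5099, miR-188-5p and miR-149-5p had -1.60, -1.43, -1.43, -1.28 and -0.65.

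Of the other rises, miR-494-3p and miR-382-3p had 3.18 and 2.92, and both were called lower in the nucleus. miR-450b-3p, miR-362-3p, miR-540-3p and miR-503-5p had 1.57, 1.22, 0.94 and 0.80. miR-669c-5p had -1.01 (adjusted p = 0.047 from limma), with a log2 difference of 1.14 in the cytoplasm and 2.15 in the nucleus.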

How the results depend on the processing

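Each of the 48 called miRNAs kept its direction under every alternative, and 4 of 14 rises and 5 of 34 falls were called under all of them. Higher calls numbered 9 with a pseudocount of 10 or a mean of at least 100. Scaled to the total count, 40 were higher and 13 lower (53 in all), and without miR-21a-5p in that total 20 were lower. Scaled to miR-186-5p, 16 were called, 5 of them lower. With no fold minimum 86 were called, 29 higher and 57 lower. Without 1 library each, 32 to 54 were called, 5 to 24 higher and 27 to 38 lower. For arm ratios, 22 were called at an adjusted p under 0.01, 4 of them higher, and without 1 library each 11 to 38, 0 to 13 higher and 11 to 25 lower. With the minor arm set by the cytoplasmic mean, miR-365-2 changed sign to 2.93, since its arms swap names. The difference between fractions was called for 88 at an adjusted p under 0.01, and for 97 to 166 without 1 library each.

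Whether the replicate numbers pair the libraries is not known. Deviations of same-numbered libraries correlated at 0.32 for 2 h and 0 h. They correlated at -0.22 for 24 h and 0 h and at -0.20 for 24 h and 2 h. With a replicate block 50 miRNAs and 37 arm ratios were called, and with crossed numbers, added after seeing the data, 50 and 42. With 2 libraries a group and 4708753 to 7787926 reads, small changes of rare miRNAs could not be seen.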
